A study of Mus musculus with 6 samples.

Results

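The 3 Cdx genes of the mouse, Cdx1, Cdx2 and Cdx4, and Urad, the gene that lies directly upstream of Cdx2, were followed in E10.5 tailbuds, and they are 4 of the 54134 genes counted. They were picked by symbol with their values in wildtype and Cdx2P:Nr6a1 tailbuds already known. Their levels in that comparison are therefore a description, and the calls given for them are not read as a test. RNA was sequenced from the tailbuds of 4 wildtype and 2 Cdx2P:Nr6a1 embryos, all labelled C57BL/6, to ask how RNA levels differ when Nr6a1, an orphan nuclear receptor known to be cleared from the tailbud as the axis grows, stays on. The transgenic embryos came directly from pronuclear injection of a construct in which a Cdx2 promoter drives the coding sequence of the long Nr6a1 isoform. Each of the 2 is therefore its own integration and not a member of a line, and by the labels the wildtype embryos are transgene-negative ones. The stretch of Cdx2 regulatory sequence in the construct is not given in the sources used here, so counts on Urad or Cdx2 exons from the construct and from the chromosome cannot be told apart. The labels give E10.5, whereas the heading of one of the study's source data sheets gives an earlier stage. Between 44073460 and 67183802 counts were assigned to genes in a library, and one library stands for one embryo.

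Cdx proteins are homeodomain transcription factors of the ParaHox group. In the posterior embryo they act downstream of Wnt, Fgf and retinoic acid signals, switch on trunk Hox genes and keep the axis growing, and later Cdx1 and Cdx2 specify the intestine. Urad encodes the decarboxylase that works after urate oxidase and 5-hydroxyisourate hydrolase in the breakdown of urate to allantoin, a pathway known mainly from liver, so its interest here is its position beside Cdx2.

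In the coordinates deposited with the counts, on GRCm38, Cdx2 lies on the minus strand of chromosome 5 from 147300805 to 147307270, with 3 exons that add up to 2261 bases. Urad lies on the same strand from 147314984 to 147322440 and has 2 exons, 766 bases in all. Transcription of Urad thus runs toward Cdx2, and its 3′ end lies 7.71 kb upstream of the Cdx2 start. Its last exon covers 7.71 to 8.20 kb upstream of that start and its first exon 14.9 to 15.2 kb. Cdx4 lies on the plus strand of the X chromosome from 103321398 to 103330592, with 3 exons and 1963 bases. Cdx1 lies on another chromosome and has 3 exons and 1750 bases. The middle exon measured 146 bases in each Cdx gene, and 0 other genes of the table overlapped the span of any of the 4 genes.

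Cdx1 had no entry among the promoters used, so the bases before its start could not be searched. The bases directly before the start sites of Cdx2, Cdx4 and Urad are shown because Cdx2 promoter activity was the driver of the transgene. They are taken from RefSeq on GRCm38.p6 and read 5′ to 3′ on the strand of the gene, with the last base next to the start, at chr5:147307271-147307499 (minus strand), chrX:103321148-103321397 (plus strand) and chr5:147322441-147322690 (minus strand). Capitals mark matches to the octamer ATGCAAAT, to CCAAT, on either strand, and to the forkhead motif GTAAACA.
Cdx2: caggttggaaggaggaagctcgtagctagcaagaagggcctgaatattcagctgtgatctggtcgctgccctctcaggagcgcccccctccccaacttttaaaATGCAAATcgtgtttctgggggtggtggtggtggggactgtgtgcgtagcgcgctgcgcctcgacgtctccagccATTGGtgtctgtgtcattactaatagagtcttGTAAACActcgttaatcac
Cdx4: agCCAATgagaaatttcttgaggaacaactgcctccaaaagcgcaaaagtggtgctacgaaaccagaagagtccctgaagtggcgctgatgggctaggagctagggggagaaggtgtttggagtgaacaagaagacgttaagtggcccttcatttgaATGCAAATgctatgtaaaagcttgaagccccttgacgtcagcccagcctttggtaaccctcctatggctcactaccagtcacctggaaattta
Urad: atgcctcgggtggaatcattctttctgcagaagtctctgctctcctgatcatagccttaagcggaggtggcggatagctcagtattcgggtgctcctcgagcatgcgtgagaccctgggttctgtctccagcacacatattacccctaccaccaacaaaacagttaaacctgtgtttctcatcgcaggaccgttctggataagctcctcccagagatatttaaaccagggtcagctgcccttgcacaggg
The octamer, recognised by Pou-domain factors such as Oct4, was found 1 time before Cdx2, at 126 to 119 bases from the start, and 1 time before Cdx4, at 93 to 86 bases. It occurs in 1.601% of the 32851 promoters of RefSeq over the 250 bases before the start, and it was not found before Urad. CCAAT was found 1 time before Cdx2 and 1 time before Cdx4, against 33.8% of all promoters, and GTAAACA 1 time before Cdx2, against 3.17%. Other motifs were searched on both strands. TCAAGGTCA, the extended half-site that Nr6a1 is known to bind (0.387% of all promoters), the half-site AGGTCA that lies within it (14.0%), the Cdx motif TTTATG (10.8%), the TCF/LEF motifs CTTTGAA (4.46%) and CTTTGAT (3.21%) and TATAAA (12.4%) had 0 matches in the windows shown. These letters say nothing of binding at other positions. The GC content was 53.7% before Cdx2, 48.4% before Cdx4 and 52.0% before Urad, beside a median of 52.4% over all promoters.

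The targeted gene follows the labels. Nr6a1 was at 3.94, 5.16, 5.52 and 6.90 CPM in wildtype replicates 1 to 4 and at 23.2 and 33.8 CPM in Cdx2P:Nr6a1 replicates 1 and 2, where CPM is the count scaled to the TMM-normalised size of the library. Its log2 fold change was 2.41 (SE 0.20, edgeR quasi-likelihood test, adjusted p = 0.00132). Most markers of caudal progenitors and presomitic mesoderm were well above the filter. T, a mesoderm regulator, stood at a mean of 1097 CPM in wildtype, Tbx6 at 250 CPM, Msgn1 at 228 CPM and Wnt3a at 218 CPM. Mesp2, another presomitic gene, was at only 0 to 6 counts per library. Xist, the RNA of the inactive X chromosome, was below 100 counts in wildtype replicate 3 and Cdx2P:Nr6a1 replicate 2 (99 and 64 counts) and at 39658 to 53556 counts in the other libraries, so each genotype held embryos of both kinds.

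Urad showed the widest separation of the 4 genes. It was at 3.79, 4.50, 3.45 and 3.58 CPM in wildtype replicates 1 to 4 and at 17.0 and 18.6 CPM in Cdx2P:Nr6a1 replicates 1 and 2. The groups did not overlap, and the lowest Cdx2P:Nr6a1 library was 3.78-fold above the highest wildtype library. The mean was 3.83 ± 0.468 CPM in wildtype (SD, n = 4) and 17.8 ± 1.14 CPM with the transgene (SD, n = 2), which gives a log2 fold change of 2.21 (SE 0.12). Only 5 of the 12733 genes tested had a larger log2 fold change. The counts behind these values were 161 to 252 in wildtype and 754 and 1248 in Cdx2P:Nr6a1 tailbuds.

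Cdx2, which gives the transgene its promoter, was at 305.7, 285, 296.0 and 295.7 CPM in wildtype replicates 1 to 4 and at 407 and 347 CPM in Cdx2P:Nr6a1 replicates 1 and 2. Both transgenic libraries lay above all wildtype libraries, but replicate 2 by only 1.14-fold, and the 2 differed from each other more than the 4 wildtype libraries did. The log2 fold change was 0.35 (SE 0.07), which became 0.23 when Cdx2P:Nr6a1 replicate 1 was removed and 0.46 when replicate 2 was. Cdx4 was at 265, 321, 283 and 268 CPM in wildtype and at 350.1 and 369 CPM in Cdx2P:Nr6a1 tailbuds. These groups did not overlap either, and the gap between the nearest libraries was 1.09-fold, with a log2 fold change of 0.34 (SE 0.08).

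Cdx1 went the other way. It was at 9.80, 9.71, 9.94 and 11.7 CPM in wildtype replicates 1 to 4 and at 6.69 and 6.87 CPM in Cdx2P:Nr6a1 replicates 1 and 2. The lowest wildtype library was 1.41-fold above the highest Cdx2P:Nr6a1 library. The log2 fold change was -0.60 (SE 0.11), from 10.3 ± 0.948 CPM (SD, n = 4) to 6.78 ± 0.126 CPM (SD, n = 2). Whether fewer cells of one type or less RNA per cell lies behind a lower level cannot be told apart in RNA from whole tailbuds, and the same holds for a higher one.

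**Figure D1:**
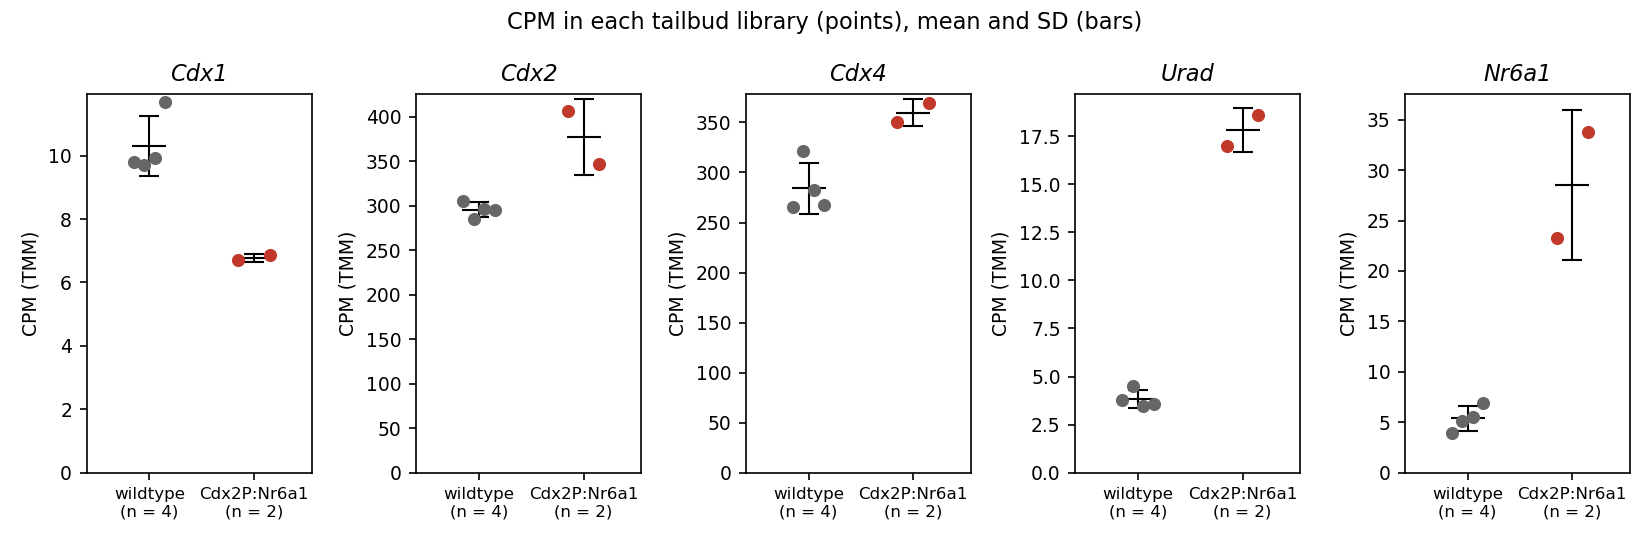
TMM-normalised CPM (vertical axes, each from 0) of Cdx1, Cdx2, Cdx4, Urad and Nr6a1 in 4 wildtype (grey) and 2 Cdx2P:Nr6a1 (red) libraries, where each point is a library and the bars give the mean and SD. The groups do not overlap in any panel, Cdx1 is the gene with the lower red points, and Urad and Nr6a1 have red points several-fold above the grey ones.

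All 4 genes passed the filter on low counts in this fit, and each had groups that did not overlap, which was so for 18.5% of the 12733 genes tested (9.39% with both Cdx2P:Nr6a1 libraries above and 9.13% with both below). At a Benjamini-Hochberg adjusted p under 0.05 in edgeR's quasi-likelihood test, 3 of the 4 were called (Cdx2 and Urad higher, Cdx1 lower), beside 1.59% of the genes tested, 0.785% higher and 0.809% lower. Because this comparison chose the 4 genes, nothing is read from these counts. The number called changed with the setting. It was 4, Cdx4 included, with DESeq2, robust estimation, no filter, the replicate block and edgeR's exact and likelihood ratio tests. It was 3 with limma voom, RLE, library size only and filterByExpr (Cdx1, Cdx2 and Urad) and without wildtype replicate 2 (Cdx1, Cdx4 and Urad). It was 2 with the Xist split as a term and without wildtype replicate 1, wildtype replicate 4 or Cdx2P:Nr6a1 replicate 2, and 1 without wildtype replicate 3 or Cdx2P:Nr6a1 replicate 1. The log2 fold changes kept their sign in the 17 alternative settings, at 2.10 to 2.30 for Urad, 0.23 to 0.46 for Cdx2, 0.30 to 0.40 for Cdx4 and -0.63 to -0.52 for Cdx1. Within the Xist-high libraries (3 wildtype and 1 Cdx2P:Nr6a1) and the Xist-low libraries (1 and 1), the log2 ratio was 2.10 and 2.43 for Urad, 0.46 and 0.23 for Cdx2, 0.30 and 0.39 for Cdx4 and -0.64 and -0.53 for Cdx1, values that have no test.

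Per kilobase of exon, the scale on which genes can be compared, Cdx4 and Cdx2 were close and far above the others. In wildtype, Cdx4 was at 145 ± 13.1 and Cdx2 at 131 ± 3.66 RPKM, the CPM divided by exon length in kilobases (SD, n = 4). Their ranges touched, since the ratio of Cdx4 to Cdx2 was 0.999 in wildtype replicate 1 and between 1.04 and 1.30 in the other wildtype libraries. In the order of wildtype levels per kilobase over the genes tested, they took places 240 and 280 of 12733. Cdx1 was at 5.88 ± 0.541 and Urad at 5.002 ± 0.610 on the same scale, near the middle of the order, and the ratio of Urad to Cdx1 ran from 0.699 to 1.06. In Cdx2P:Nr6a1 tailbuds the order was Cdx4 at 183 ± 6.89, Cdx2 at 167 ± 18.8, Urad at 23.2 ± 1.49 and Cdx1 at 3.87 ± 0.0719 RPKM (SD, n = 2). Urad, level with Cdx1 in wildtype, was thus 5.80 and 6.18 times as high as Cdx1 in the Cdx2P:Nr6a1 libraries. Urad remained far below its neighbour, at 3.44% to 4.65% of the level of Cdx2 in wildtype and 12.3% and 15.8% in Cdx2P:Nr6a1 tailbuds.

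The variation between wildtype embryos differed among the paralogs. The coefficient of variation was 2.80% for Cdx2, beside a median of 3.81% over the 500 genes nearest to it in level, and 9.08% for Cdx4, beside 3.84%. The one wildtype library that set Cdx4 apart was replicate 2, at 321 CPM, which was also the library with the least Cdx2. Cdx1 (9.21% beside 7.78%) and Urad (12.2% beside 11.4%) were near the medians for genes of their level.

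The sum of the 3 Cdx genes was 274 to 295 RPKM in wildtype and 362 and 345 in Cdx2P:Nr6a1 replicates 1 and 2. Its make-up was nearly the same for the 2 abundant paralogs. Cdx4 took 49.0% to 55.4% of the sum in wildtype and 49.2% and 54.4% in Cdx2P:Nr6a1 tailbuds, and Cdx2 took 42.7% to 49.0% and then 49.7% and 44.4%. Cdx1 took 1.88% to 2.44% in wildtype and 1.06% and 1.14% in Cdx2P:Nr6a1 tailbuds, without overlap. The ratio of Cdx2 to Cdx1 was 19.6 to 24.1 in wildtype and 47.1 and 39.1 with the transgene, and that of Cdx4 to Cdx1 was 20.4 to 29.5 and then 46.6 and 47.9, whereas the ratio of Cdx4 to Cdx2 was 0.990 and 1.23, inside the wildtype range or just under it.

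**Figure D2:**
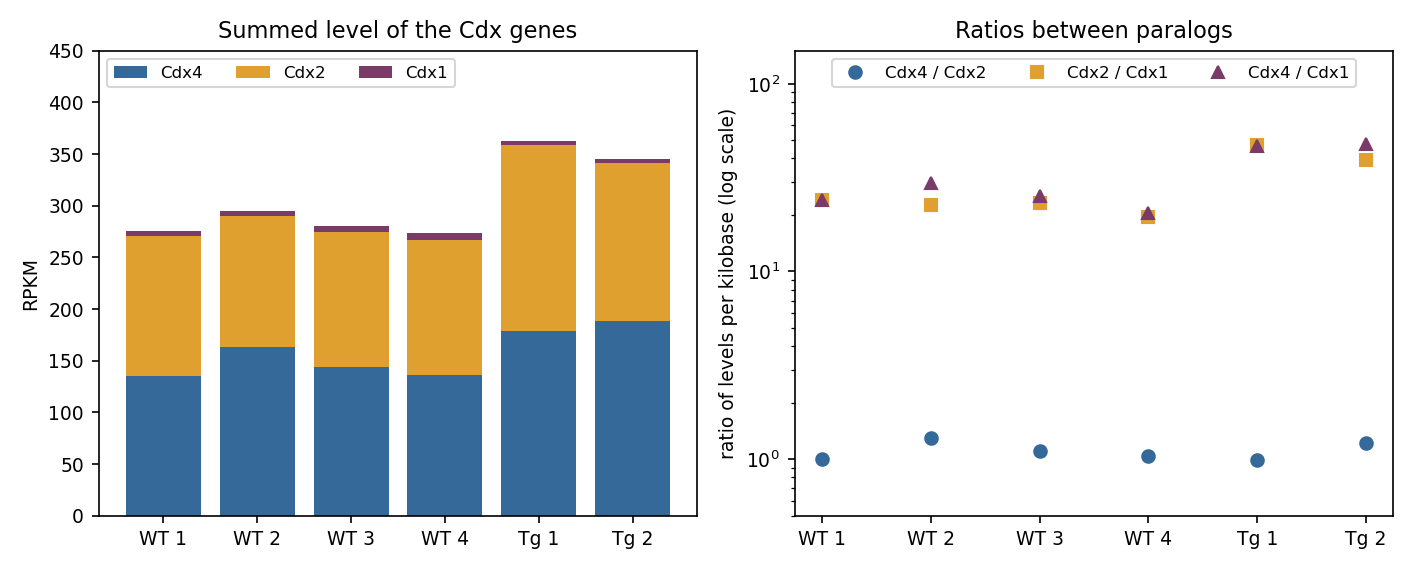
Left, the summed level of Cdx1, Cdx2 and Cdx4 in each library in RPKM (stacked bars from 0, wildtype as WT and Cdx2P:Nr6a1 as Tg). Right, the ratios between paralogs on a log axis, 1 point per library, where both ratios to Cdx1 lie higher in the Tg libraries, at 39.1 to 47.9, than in the WT libraries, at 19.6 to 29.5, and Cdx4 over Cdx2 stays near 1.

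The levels of the 4 genes did not all follow Nr6a1 between the transgenic embryos. Replicate 2 had more Nr6a1 than replicate 1, with 28.4 against 17.9 CPM above the wildtype mean, and it also had more Urad (14.8 against 13.2 CPM above) and more Cdx4 (85.1 against 66.0 CPM above). It had less Cdx2, at 51.3 against 111.5 CPM above the wildtype mean. Cdx1 was below the wildtype mean by nearly the same amount in both, at -3.42 CPM in replicate 2 and -3.60 CPM in replicate 1. With 2 transgenic libraries no relation among these values can be tested.

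The tested neighbours of Urad and Cdx2 were close to their wildtype levels. Of the 29 other genes with an exon within 500 kb of Cdx2 or Urad, 9 were tested and 0 were called higher or lower, with log2 fold changes from -0.17 (Flt1, a receptor of vascular growth factors) to 0.08 (Rasl11a). Flt3, a cytokine receptor gene whose 3′ end lies 8.30 kb beyond the start of Urad, had a log2 fold change of 0.04 (SE 0.30, edgeR adjusted p = 0.984). Pdx1, the ParaHox gene on the other side of Cdx2, whose end lies 25.0 kb from that of Cdx2, was at 13 to 21 counts per library and was not tested, and the other ParaHox genes Gsx1 and Gsx2 were not tested either. Around Cdx1, 12 of 28 genes were tested, and around Cdx4, 6 of 61, with 0 called. Over the 27 tested neighbours of the Cdx genes, the quasi-likelihood test called 0, and 1 had an unadjusted p under 0.05. DESeq2 and edgeR's exact and likelihood ratio tests each called 1 neighbour, limma voom 0, and edgeR without a filter on low counts 3. The median log2 fold change was -0.03 over these neighbours and 0.00 over all genes tested.

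**Figure D3:**
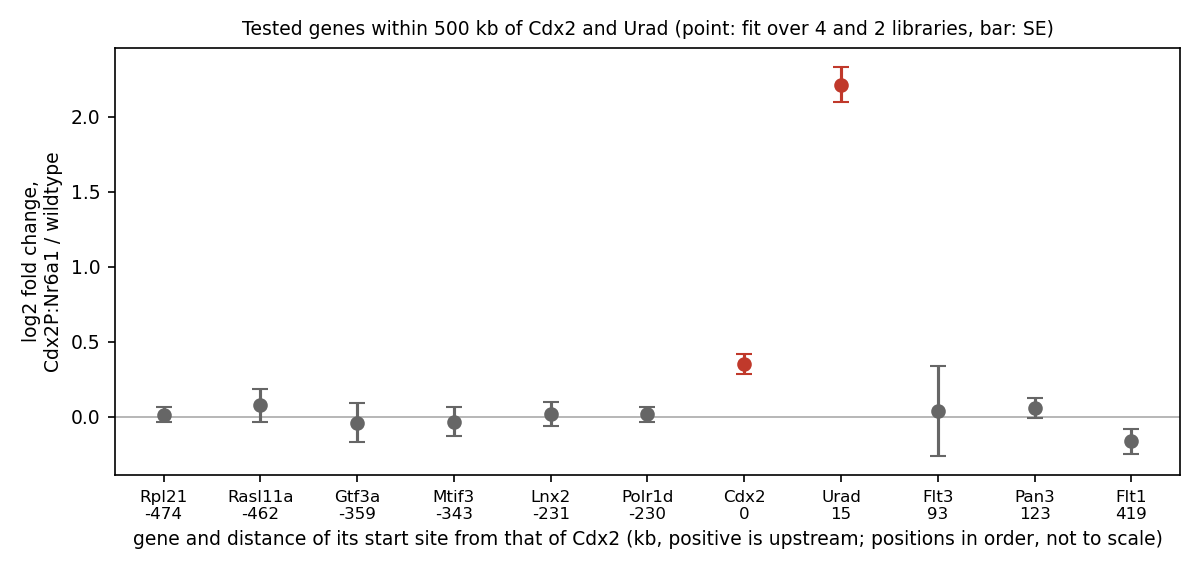
Fitted log2 fold change, Cdx2P:Nr6a1 over wildtype, with its SE (vertical axis) for Cdx2 and Urad (red) and the 9 tested genes within 500 kb (grey), placed in their order along the chromosome with the distance of each start site from that of Cdx2 in kb. Urad, at 2.21, is the one point far from 0, and the grey points lie between -0.17 and 0.08.

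Genes of urate and purine metabolism were followed beside Urad, among them the purine salvage genes Hprt and Aprt and the urate transporter gene Slc2a9. Of 10 genes listed, 5 reached the levels tested and edgeR's quasi-likelihood test called 0 of them, with 2 at an unadjusted p under 0.05. DESeq2, limma voom and edgeR's exact and likelihood ratio tests called 0, edgeR with filterByExpr 1 (Gda) and without a filter 3 (Ada, Gda and Xdh). The median log2 fold change of the 5 was 0.11. Uox, the urate oxidase gene, was at 0 to 4 counts per library, and Urah, for the hydrolase that acts just before Urad, at 24 to 42 counts, so neither of the enzymes that feed Urad was tested. Xdh, for xanthine dehydrogenase, which makes urate, was too low for the filter but did not overlap between groups, at 0.205, 0.339, 0.0357 and 0.111 CPM in wildtype and 0.744 and 1.06 CPM in Cdx2P:Nr6a1 tailbuds. Ada, for adenosine deaminase, differed between the transgenic libraries, at 6.63 CPM in replicate 1 and 17.8 CPM in replicate 2, beside a wildtype mean of 6.65 ± 1.51 CPM (SD, n = 4), and was not called (adjusted p = 0.328). Pnp (0.12), Aprt (0.11), Slc2a9 (0.02) and Hprt (-0.09) had small log2 fold changes.

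Signals and factors known to act on Cdx transcription were examined next. Of 24 such genes 22 were tested, and 1 was called higher and 3 lower, beside 0.785% and 0.809% of all genes tested. There were 8 positive and 14 negative log2 fold changes, with 7 unadjusted p under 0.05 and a median of -0.08. Counts of unadjusted p, here and in the other lists, have no share over all genes beside them, and nothing is read from them. Rarb and Pou5f1 (Oct4), whose protein binds the octamer, were too low to be tested. Among retinoic acid genes, Aldh1a2, for the enzyme that makes retinoic acid, fell to 7.40 ± 1.42 CPM (SD, n = 2) from 17.7 ± 2.32 CPM in wildtype (SD, n = 4), and the log2 fold change was -1.25 (SE 0.16, edgeR adjusted p = 0.00693). Cyp26a1, for the enzyme that degrades it, rose to 342 ± 84.5 CPM from 206 ± 23.4 CPM, with a log2 fold change of 0.73 (SE 0.13, edgeR adjusted p = 0.032), with 401 CPM in replicate 1 and 282 CPM in replicate 2. The receptor gene Rarg was not called (0.10). Thus the synthesis gene was lower and the degradation gene higher in both transgenic libraries.

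Among Wnt genes, Tcf7l2, for a transcription factor that binds with beta-catenin, fell to 6.78 ± 0.126 CPM (SD, n = 2) from 9.999 ± 0.345 CPM in wildtype (SD, n = 4), and the log2 fold change was -0.56 (SE 0.09, edgeR adjusted p = 0.020). Sp5, for a zinc finger factor induced by Wnt signals, fell to 65.3 ± 2.20 CPM from 100 ± 14.9 CPM, with a log2 fold change of -0.62 (SE 0.12, edgeR adjusted p = 0.043). The ligand gene Wnt3a had a log2 fold change of -0.10 (adjusted p = 0.835), and T (-0.18), Lef1 (-0.13) and Ctnnb1 (0.02) were not called. Among Fgf genes Fgf4 (-0.57, adjusted p = 0.103), Fgf8 (0.25), Fgf17 (0.20) and the receptor gene Fgfr1 (-0.22) were not called, nor was Gdf11 (-0.11). Some of these calls were lost in other settings, although the direction was kept in all 17. Tcf7l2 was not called without wildtype replicate 3 (adjusted p = 0.0510), Cdx2P:Nr6a1 replicate 1 (0.134) or replicate 2 (0.144) or with the Xist split as a term (0.0606). Its adjusted p ran from 0.000342 to 0.144 over the 17 alternatives and its log2 fold change from -0.60 to -0.54. Sp5 was not called without wildtype replicate 2 (0.0654), wildtype replicate 4 (0.0626), Cdx2P:Nr6a1 replicate 1 (0.208) or replicate 2 (0.249), with robust estimation (0.0895) or with the Xist term (0.0577), over a range of 9.51e-21 to 0.249, and its log2 fold change ran from -0.69 to -0.55. Cyp26a1 was not called without wildtype replicate 1 (0.0677), replicate 2 (0.0619) or replicate 4 (0.0807) or without Cdx2P:Nr6a1 replicate 1 (0.215), with robust estimation (0.161) or with the Xist term (0.0524), over a range of 1.43e-30 to 0.215. Its log2 fold change was 0.46 without Cdx2P:Nr6a1 replicate 1, the lowest of the alternatives, and 0.97 at the highest. Aldh1a2 was not called without Cdx2P:Nr6a1 replicate 1 (0.0612) and was called in the other 16 alternatives, over a range of 8.47e-21 to 0.0612, and its log2 fold change ran from -1.46 to -1.07.

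Genes known to need or bind Cdx factors in the trunk were all tested. Of 20, 4 of which are also on the list of inputs, 14 had positive and 6 negative log2 fold changes, with 8 unadjusted p under 0.05 and a median of 0.10. The quasi-likelihood test called 3 higher and 0 lower, beside 0.785% and 0.809% of all genes tested. Beside Cyp26a1, these were Hoxa9, which rose from 180 ± 5.51 (SD, n = 4) to 229 ± 11.1 CPM (SD, n = 2, log2 fold change 0.35, edgeR adjusted p = 0.012), and Hoxc8, from 44.8 ± 4.18 to 63.2 ± 5.11 CPM (0.49, edgeR adjusted p = 0.027), both trunk Hox genes. Hoxc5 (0.26), Hoxc6 (0.32), Hoxc9 (0.34) and Hoxa7 (0.20) had positive values and Hoxb5 (-0.18) and Hoxb9 (-0.22) negative ones, without being called. Hoxa9 was not called without Cdx2P:Nr6a1 replicate 1 (adjusted p = 0.114, over a range of 1.21e-07 to 0.114 in the alternatives), and Hoxc8 not without wildtype replicate 4 (0.0618), Cdx2P:Nr6a1 replicate 1 (0.209) or replicate 2 (0.0837) or with the Xist term (0.0514), over a range of 7.19e-11 to 0.209. Over the same alternatives the log2 fold change was 0.30 to 0.39 for Hoxa9 and 0.41 to 0.58 for Hoxc8. Of 12 intestinal genes that need Cdx factors, 1 was tested, Vil1, a gene of the brush border (-0.24, adjusted p = 0.632), and the quasi-likelihood test of edgeR called 0, with 0 at an unadjusted p under 0.05. DESeq2, limma voom and edgeR's exact and likelihood ratio tests called 0 as well.

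**Figure D4:**
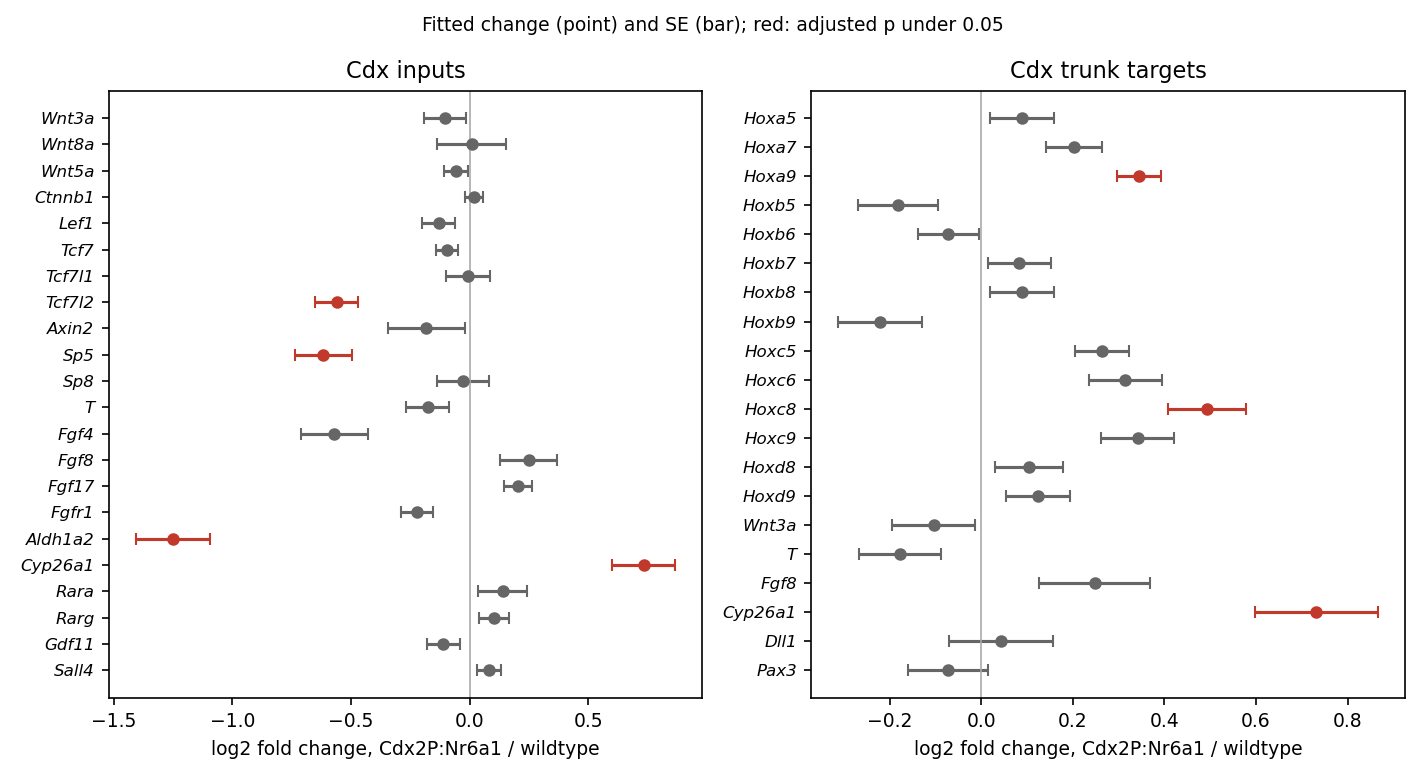
Fitted log2 fold change, Cdx2P:Nr6a1 over wildtype (horizontal axes), with its SE for the tested genes known to act on Cdx transcription (left, 22 genes) and the genes known to need Cdx factors in the trunk (right, 20 genes), where red marks an adjusted p under 0.05. On the left Aldh1a2, Tcf7l2 and Sp5 lie below 0 and Cyp26a1 above, and on the right Cyp26a1, Hoxa9 and Hoxc8 lie above.

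Cdx2 is also a gene of the hindgut, which a tailbud dissection can include, so markers of other tissues were measured beside it. Of 15 hindgut endoderm markers 11 were tested, 9 with positive log2 fold changes (median 0.25), and 1 was called, Krt18, a keratin of simple epithelia, which rose from 50.0 ± 3.21 (SD, n = 4) to 64.4 ± 0.252 CPM (SD, n = 2, edgeR adjusted p = 0.026). Krt18 was not called without wildtype replicate 2 (adjusted p = 0.0519), wildtype replicate 3 (0.0541), Cdx2P:Nr6a1 replicate 1 (0.154) or replicate 2 (0.169), over a range of 4.47e-06 to 0.169 in the alternatives, where its log2 fold change was 0.34 to 0.39, beside 0.37 in the reported fit. The summed level of the list was 467 to 591 CPM in wildtype and 689 and 596 CPM in Cdx2P:Nr6a1 replicates 1 and 2. Without the keratins Krt8 and Krt18, left out after the values were seen, the sums were 355 to 461 CPM and then 526 and 445 CPM, which overlap. Replicate 1, with more Cdx2 than replicate 2, had the higher sums of hindgut, caudal progenitor, neural tube, surface ectoderm and notochord markers. Its sums of somite, erythroid, endothelial and macrophage markers were lower. In wildtype the highest hindgut sum was in replicate 4 and the most Cdx2 in replicate 1. The endoderm regulators Sox17 (0.02) and Foxa2 (0.29) and the epithelial genes Epcam (0.25) and Cdh1 (0.26) were not called. None of the 15 was at 0 in all libraries. The notochord list, which shares 4 genes with the hindgut list, summed to 183 to 212 CPM in wildtype and to 250 and 223 CPM in Cdx2P:Nr6a1 replicates 1 and 2. Of its 8 tested genes 1 was called, again Krt18. Most of this sum was Krt18 and Krt8, the latter at a mean of 72.6 CPM in wildtype and 92.8 CPM with the transgene. Notochord sums without them are not given. The part of either tissue in the levels of Cdx2 was not tested.

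For caudal progenitors and presomitic mesoderm, where all 3 Cdx genes are known to be active, the summed level overlapped between groups, at 2769 to 3127 CPM in wildtype and 2725 to 3088 CPM in Cdx2P:Nr6a1 tailbuds, and 1 of 11 tested genes was called, Cyp26a1. Somite markers summed to 108 to 117 CPM and then to 88.5 to 102 CPM, with 1 of 5 called, Aldh1a2. Aldh1a2 is part of these sums, at a mean of 17.7 CPM in wildtype and 7.40 CPM with the transgene. Sums without it are not given. Neural tube markers summed to 317 to 356 CPM in wildtype and 283 to 314 CPM in Cdx2P:Nr6a1 tailbuds, and most of the sum was Nes, an intermediate filament gene, at 296 ± 16.2 CPM in wildtype (SD, n = 4) and 247 ± 31.3 CPM with the transgene (SD, n = 2). The other 3 tested neural genes, Sox1 (1.77), Sox3 (1.26) and Sox2 (0.17), had positive log2 fold changes, and the median of the 4 was 0.72. Sox1 and Sox3 were called higher. Sox1 was at 0.902 to 1.41 CPM in wildtype and at 2.93 and 5.10 CPM in Cdx2P:Nr6a1 replicates 1 and 2. It thus passed the filter on low counts only through the transgenic libraries, and its call and its place in the median rest on that. Sox3 was not called without Cdx2P:Nr6a1 replicate 2 (edgeR adjusted p = 0.0791, over a range of 3.21e-18 to 0.0791 in the alternatives). The sums of surface ectoderm, erythroid, endothelial and macrophage markers overlapped between groups, and edgeR's quasi-likelihood test made 0 calls among their 9, 8, 8 and 6 tested genes, with 1, 0, 0 and 1 at an unadjusted p under 0.05.

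For each gene, the 3 tested genes whose CPM relative to the wildtype mean was nearest over the 6 libraries were listed by the root mean square log2 difference, as a description over libraries that are the same for both genes. Nearest to Urad were Padi2, for a peptidylarginine deiminase (0.199), Gjb6, for a connexin (0.238), and Lrrc4 (0.296), where the median over all genes tested was 1.29. The nearest genes lie below such a median by construction, so the medians given here are only a scale. Nearest to Cdx2 were Klk8, Fermt1 and Ahnak (0.0346 to 0.0401, median 0.229), and nearest to Cdx4 were Gm5148, Slco5a1 and Hoxc9 (0.0321 to 0.0452, median 0.237). Nearest to Cdx1 were Stambpl1, Gm26793 and Col13a1 (0.0860 to 0.0914, median 0.366). No Cdx gene was among the 3 nearest of another.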

How the data were processed

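Tailbud libraries were made by the submitters from polyadenylated RNA with a stranded kit. The authors deposited raw counts per gene with exon coordinates, and the submitters' processing notes name STAR, edgeR and mm10. The counting program is not given in the sources used here. Of the deposited exons, 99.5% were the same in GENCODE M21. A second deposited table of the authors' own fold changes, p-values, FDR and CPM was not used. Samples were grouped by their labelled genotype, with no sample left out.

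The counts were fitted with edgeR 4.0.16 in R 4.3.3 (count above 10 and CPM above 2 in at least 2 libraries, TMM, quasi-likelihood test, Benjamini-Hochberg FDR under 0.05), after the code was tested on simulated data. CPM used TMM library sizes, and levels per kilobase used merged exons. Patterns were compared on log2(CPM + 0.01). Alternatives were the likelihood ratio and exact tests of edgeR, DESeq2 1.42.0, limma 3.58.1 voom, robust estimation, RLE, library size only, filterByExpr, no filter, the replicate block and each library left out. A term for the Xist split was chosen after seeing the data. The genes, lists and tests were chosen with earlier results of these data known. The genes named are the 4 genes, Nr6a1, list genes, neighbours within 500 kb and the 3 nearest patterns. The values of 1 neighbour are not reported here. Counting error alone is small at 44073460 counts or more per library, and precision is set by 2 transgenic embryos.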

Additional observations from a re-analysis of the deposited data

Results flagged for a closer look

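Cdx1 in wildtype replicate 4, at 11.7 CPM, lay apart from the other wildtype libraries, at 9.71 to 9.94 CPM. It was the 1 marked among 24 genes and ratios, each examined over the 4 wildtype libraries by a test for a single distant sample, which by chance marks about 1 in 20 groups. The Cdx2P:Nr6a1 libraries, 2 in number, could not be examined in this way. The distant value is on the side away from the Cdx2P:Nr6a1 libraries, at 6.69 and 6.87 CPM, and the wildtype replicates nearest to them remained above both.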

How the results depend on the processing

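Of the values recomputed under 17 alternative settings, 169 kept their direction and stayed on their side of the threshold or close to the reported value, 35 moved and 0 reversed. The number of genes called, 203 in the reported fit, was 401 with the likelihood ratio test, 391 with the exact test, 477 with DESeq2, 876 without a filter and 442 with the replicate block, and 61 to 175 with each library left out, with 134 without wildtype replicate 4 and 61 without either Cdx2P:Nr6a1 replicate. Of the inputs to Cdx genes, 4 were called, against 7 with DESeq2, 8 without a filter, 2 with robust estimation and 1 with the Xist split as a term, and 0 to 3 with each library left out (2 without wildtype replicate 2, wildtype replicate 4 or Cdx2P:Nr6a1 replicate 2, 0 without Cdx2P:Nr6a1 replicate 1). Of the trunk targets, 3 were called, against 6 with DESeq2, the exact test, the likelihood ratio test or the replicate block, 9 without a filter and 1 with the Xist term, and 0 to 3 with each library left out (1 without wildtype replicate 4, 0 without Cdx2P:Nr6a1 replicate 1). Of the neighbours, 0 were called, against 1 with robust estimation, DESeq2, the exact test, the likelihood ratio test or the replicate block, 3 without a filter and 0 to 1 with each library left out. Of the urate and purine genes, 0 were called, against 1 with filterByExpr and 3 without a filter. The log2 fold change of Cdx2 ranged from 0.23 to 0.46 with each library left out. The causes of these shifts were not tested, beyond the fewer samples or the other set of genes that a setting has by construction. With 1 Cdx2P:Nr6a1 library left, that library is assumed to vary as the wildtype libraries do. The deviations from the group means of equally numbered libraries correlated at 0.27 for number 1 and -0.23 for number 2. With 2 transgenic libraries these deviations are mirror images, so the check cannot show whether the numbers pair the embryos. The labels tie the numbers to no shared litter or day, and the block is treated as only a number. Depth is similar enough that it limits only genes of a few counts, such as Uox and Pdx1.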
